A study of Mus musculus with 4 samples.

Results

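The peaks described here are sites of tagged MafG in mouse liver that lie at an end of a long non-coding RNA (lncRNA) gene and away from the ends of protein-coding genes. A peak on chromosomes 1 to 19 was a member when its midpoint lay within 1 kb of either end of a RefSeq lncRNA gene and over 10 kb from every end of a protein-coding gene. Of 66904 peaks on these chromosomes, 1357 (2.03%) met both conditions, of 68763 in the whole list. No measured tag count entered this choice. The peaks come from chromatin immunoprecipitation with sequencing (ChIP-seq) of livers of C57BL6/J mice, with 4 libraries in all. Of these, 2 came from livers that overexpressed BLRP-tagged MafG (treatment label Ad BLRP MAFG) and 2 from livers with the BLRP control (Ad BLRP Control), and all were fixed with formaldehyde and precipitated with an Avi-tag antibody. The age of the mice is not given in the sources used here. The precipitated MafG was overexpressed and tagged, so the peaks need not all be sites of the native protein. The deposited list was called on 1 BLRP-MafG and 1 control tag collection, of 20406492 tags for BLRP-MafG and, as the scaling of the columns implies, about 17200000 tags for the control. It holds no value per library, so no spread between libraries can be given, and every interval below is an exact 95% interval of counting error alone.

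MafG belongs to the small MAF proteins. These carry a basic region and a leucine zipper, bind DNA as dimers and lack a transactivation domain. Paired with itself it acts on MAF recognition elements, and paired with CNC factors such as NRF2 or BACH1 it reads NF-E2-type and antioxidant response elements, in which the MAF partner contacts a GC-containing flank beside an AP-1-like core. Long non-coding RNAs are transcripts without a protein product. Some have known roles in imprinting, in stress responses or as hosts of small RNAs, while most of those listed in RefSeq by a Gm or Rik symbol have no assigned function. Many start at distal regulatory DNA, far from protein-coding promoters.

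The name of the set needed 1 qualification. Of the 1357 peaks, 377 (27.8%) lay inside a protein-coding gene although over 10 kb from both of its ends, so they were not at lncRNA genes alone. Of all 1357, 20 (1.47%) lay within 1 kb of an end of another non-coding gene or pseudogene, with 9 at a pseudogene, 4 at a tRNA gene and 1 at a miRNA gene. The peaks touched 1312 lncRNA genes, of which 1094 carry a Gm symbol, 163 a Rik symbol, 19 a LOC symbol and 36 another name.

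Sequence was at hand where a peak overlapped a RefSeq promoter window, which runs from 250 bases before to 50 after a transcript start. Of the 1357 peaks, 206 (15.2%) overlapped such a window of a lncRNA gene, 140 of them by 100 bp or more. Among these 140, 7 windows held the NF-E2-type site, here TGANTCA directly followed by GCA. All 7 are shown, and the site lay within 100 bp of the peak midpoint in each. Of all 206 windows, 9 held the site. Those at Gm32336 (normalized tag count 53.4) and Gm40028 (21.6), overlapped by under 100 bp, are not shown. Each run is the stretch of the window inside the peak, read 5′ to 3′ on the strand of the transcript from RefSeq (GRCm38.p6), with the site in capitals. A site on the other strand reads as TGC directly followed by TGANTCA. The stretches are Gm31613 at chr16:78236831-78237031 (plus strand), Gm30075 at chr7:73238608-73238794 (minus strand), Gm32348 at chr12:85569762-85569873 (plus strand), Gm36208 at chr10:122792677-122792810 (minus strand), Gm41161 at chr14:57377035-57377156 (plus strand), Gm33154 at chr3:29045500-29045700 (minus strand) and Gm40403 at chr12:40248087-40248243 (minus strand).
Gm31613: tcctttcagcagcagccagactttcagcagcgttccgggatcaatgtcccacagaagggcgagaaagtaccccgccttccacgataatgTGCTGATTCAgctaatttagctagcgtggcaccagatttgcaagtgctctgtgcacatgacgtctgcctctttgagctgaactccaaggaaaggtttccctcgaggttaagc
Gm30075: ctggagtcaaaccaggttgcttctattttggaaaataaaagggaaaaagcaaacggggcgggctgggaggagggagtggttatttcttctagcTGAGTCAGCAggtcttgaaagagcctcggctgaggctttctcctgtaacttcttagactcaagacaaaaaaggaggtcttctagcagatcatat
Gm32348: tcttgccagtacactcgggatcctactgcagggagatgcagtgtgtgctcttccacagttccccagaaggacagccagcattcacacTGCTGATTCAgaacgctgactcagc
Gm36208: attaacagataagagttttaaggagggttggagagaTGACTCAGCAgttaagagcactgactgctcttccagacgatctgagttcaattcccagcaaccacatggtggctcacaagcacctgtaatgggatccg
Gm41161: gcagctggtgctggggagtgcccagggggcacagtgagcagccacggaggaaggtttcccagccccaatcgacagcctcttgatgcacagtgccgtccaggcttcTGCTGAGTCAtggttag
Gm33154: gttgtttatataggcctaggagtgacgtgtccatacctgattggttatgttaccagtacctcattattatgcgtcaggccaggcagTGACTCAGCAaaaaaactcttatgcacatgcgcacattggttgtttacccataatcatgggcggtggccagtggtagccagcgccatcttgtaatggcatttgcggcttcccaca
Gm40403: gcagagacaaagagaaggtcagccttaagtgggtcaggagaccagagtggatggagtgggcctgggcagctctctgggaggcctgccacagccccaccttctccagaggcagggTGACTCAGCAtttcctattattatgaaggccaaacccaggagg

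The height of these 7 peaks, as the normalized tag count (BLRP-MafG tags in the peak per 10000000 tags), was 474.8 for Gm31613, 76.0 for Gm30075, 61.7 for Gm32348, 51.0 for Gm36208, 32.3 for Gm41161, 12.3 for Gm33154 and 10.8 for Gm40403. The same kind of site thus lay under the highest peak of all 1357 and under peaks at or below their median of 12.7. The centre of the site was 6 bp from the peak midpoint at Gm31613, 2 bp at Gm30075 and 18 bp at Gm40403. With so few windows, the median of 51.0 with the site (quartiles 22.3 and 68.8), against 11.8 without it (quartiles 7.84 and 17.2), is a description only.

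A peak of similar height did not always hold the NF-E2-type site. The peak at Gm33479 reached 69.6 (58.6 to 82.0) with 0 control tags and had no NF-E2-type site in its window. It held the small MAF core TGCTGA, or its reverse complement TCAGCA, 4 times, the nearest 2 bp from the midpoint. The peak at Gm36784 reached 78.9 (67.2 to 92.1), also with 0 control tags, and its window held neither of these motifs, only the antioxidant response core TGACNNNGC. Both stretches are shown with TGCTGA or TCAGCA in capitals, of which Gm36784 has none, from chr4:52958805-52959005 (minus strand) and chr13:48708043-48708238 (plus strand).
Gm33479: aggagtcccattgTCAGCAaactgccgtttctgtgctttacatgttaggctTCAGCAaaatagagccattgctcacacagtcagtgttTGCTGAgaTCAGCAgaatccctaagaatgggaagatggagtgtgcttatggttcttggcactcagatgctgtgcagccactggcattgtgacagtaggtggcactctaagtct
Gm36784: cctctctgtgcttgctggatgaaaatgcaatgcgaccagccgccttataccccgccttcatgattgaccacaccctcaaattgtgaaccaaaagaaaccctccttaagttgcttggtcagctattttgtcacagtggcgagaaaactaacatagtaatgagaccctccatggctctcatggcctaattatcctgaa

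Over all 140 windows, the core TGCTGA was found in 57 (40.7%, interval 32.5 to 49.3), against 21.5% (20.7 to 22.3) of 10788 lncRNA windows without any listed peak and 19.4% of all 31396 windows. The AP-1-type site TGANTCA was in 20% (13.7 to 27.6), against 9.04% and 7.84% in the same order. The NF-E2-type site, which contains both of these, was in 5.00% (2.03 to 10.0), against 0.510% and 0.430%. The antioxidant response core TGACNNNGC was in 22.1% (15.6 to 29.9), against 11.0% and 12.5%. The palindrome frame, TGC and GCA with 7 bases of any kind between them, was in 13.6% (8.37 to 20.4), against 7.38% and 7.71%. For each of these 5 motifs the interval under a peak lay above that of the lncRNA windows without one, most narrowly for the palindrome frame (8.37% against an upper bound of 7.89%). The full palindrome, TGCTGA and TCAGCA joined by G, was in 0 of the 140 (which allows up to 2.6%, the upper limit of the exact interval) and in 0.00319% of all windows. The lncRNA windows without a peak were taken at any distance from protein-coding genes. The 140 lie under peaks over 10 kb from protein-coding ends, so these sets also differ in location. Both strands were searched and motifs overlap one another. A match describes the letters of a window and does not show that MafG bound there. The median GC content was 48.7% in the windows under a peak and 48.3% in lncRNA windows without one.

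Some motif shares differed from those at protein-coding promoters under a listed peak. Of 1669 such windows, 6.77% (5.61 to 8.08) held the AP-1-type site and 25.1% (23.0 to 27.3) the core TGCTGA, and neither interval overlapped that of the 140 lncRNA windows. The NF-E2-type site was in 1.08% (0.640 to 1.70) of them, also below the interval at lncRNA windows. For the antioxidant response core (19.4%, 17.5 to 21.3) and the palindrome frame (9.83%, 8.44 to 11.4) the intervals overlapped. The protein-coding windows were richer in GC, at a median of 59.3%, and the part of base composition in these differences was not tested. No share was computed for protein-coding windows without a peak. Differences between the kinds of promoter and between their peaks therefore cannot be told apart. Where the core TGCTGA was present under a peak at a lncRNA end, the copy nearest to the midpoint lay a median of 15.5 bp from it. In 54 of 57 windows that copy lay within 100 bp of the midpoint. The core occurred 2 or more times in 19 of these windows, and taking the nearest copy shortens the distance. The windows were also chosen for an overlap of 100 bp or more with the peak, which by itself favours sites near the midpoint. The share of near sites that this choice alone would give was not computed, here or for the NF-E2-type site.

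**Figure D1:**
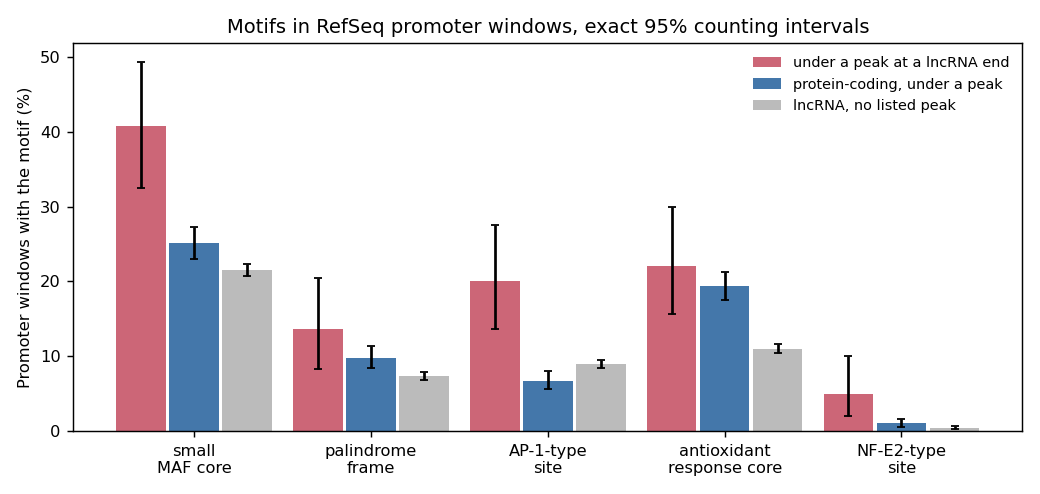
Share of promoter windows (vertical axis, percent) that hold each motif, in 140 lncRNA windows under a peak, 1669 protein-coding windows under a peak and 10788 lncRNA windows without one; lines are exact 95% counting intervals. The core TGCTGA stands at 40.7%, 25.1% and 21.5% in that order, and the AP-1-type site at 20%, 6.77% and 9.04%.

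Peaks were denser at lncRNA gene ends than in the rest of the sequence that lies far from protein-coding genes. Within 1 kb of lncRNA ends there were 41.6 peaks per Mb (39.4 to 43.8; 1357 peaks in 32.6 Mb), against 23.6 (23.4 to 23.8; 44641 peaks in 1891 Mb) elsewhere over 10 kb from protein-coding ends, a ratio of 1.76. The density was lower at greater distance, going from 48.0 per Mb (43.4 to 52.9) in the first 250 bp to 33.6 (31.5 to 35.7) at 1 to 2 kb, 30.1 (29.1 to 31.2) at 5 to 10 kb, 28.9 (28.3 to 29.5) at 20 to 50 kb and, beyond 50 kb, 20 (19.7 to 20.3). Sequence up to 50 kb from lncRNA ends was thus itself denser in peaks than the sequence beyond. Protein-coding gene ends had a higher density, of 69.7 per Mb (67.9 to 71.7), so lncRNA ends reached 0.596 of that value. Assembly gaps, where no peak can lie, were not removed from the lengths.

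**Figure D2:**
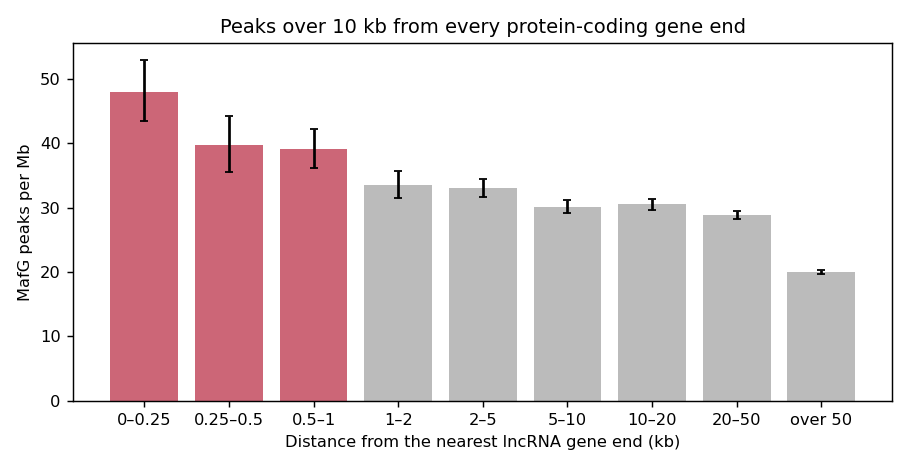
Peaks per Mb (vertical axis) by distance from the nearest lncRNA gene end in kb (horizontal axis), over 10 kb from every protein-coding gene end; red bars are the 1357 peaks described, grey bars the 44641 others, and lines are exact 95% counting intervals. The density goes from 48.0 per Mb in the bin nearest to the gene end to 20 beyond 50 kb.

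Both kinds of gene end were above the 23.6 per Mb found elsewhere, but only at starts did the interval also lie above those of the flanks from 1 to 3 kb away. The strand of a gene was taken from its promoter window and was known for 1000 of the 1312 genes. Around starts, the density was 51.4 per Mb (47.5 to 55.5) within 1 kb, against 34.0 (30.9 to 37.5) from 1 to 3 kb outside the gene and 33.7 (30.5 to 37.1) from 1 to 3 kb inside it. The 250 bp just before the start had 73.3 per Mb (113 peaks) and the first 250 bp after it 60.9 (94 peaks). Around 3′ ends, the density was 35.7 per Mb (32.5 to 39.1) within 1 kb, inside the intervals of the flanks at 34.5 (31.3 to 37.8) outside and 34.8 (31.6 to 38.1) inside. Within that kilobase it was 40.8 (36.0 to 46.0) on the gene's side of the 3′ end and 30.6 (26.5 to 35.2) past it. Peaks do not fall independently of one another, so these intervals are a lower limit of the uncertainty. By nearest end, 604 peaks belonged to a start, 435 to a 3′ end and 318 to an end of unknown strand.

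**Figure D3:**
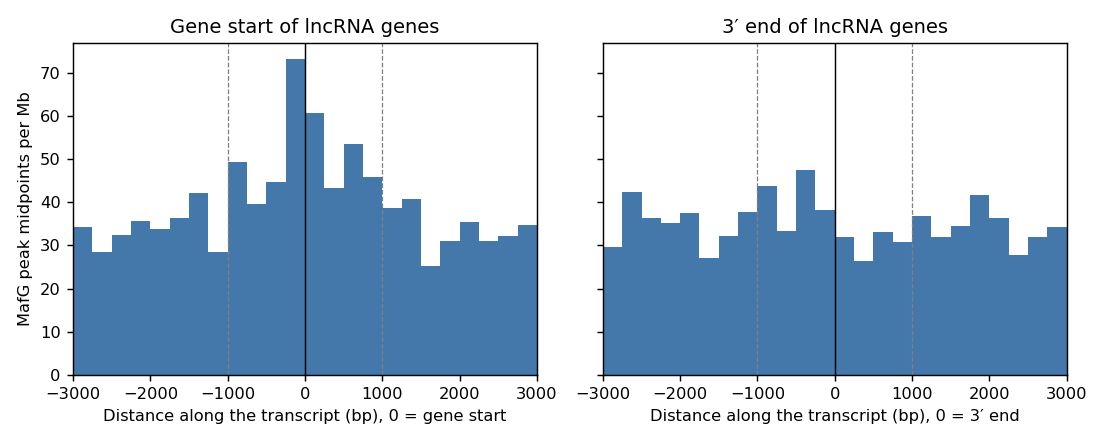
Peak midpoints per Mb (vertical axis) in steps of 250 bp around the starts and the 3′ ends of lncRNA genes of known strand, over 10 kb from protein-coding gene ends (horizontal axis in bp along the transcript, dashed lines at 1 kb). The highest step, 73.3 per Mb, lies just before the start, while the 3′ ends show no step above 47.6.

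In height the peaks were ordinary, with a smaller share of very tall ones than the other peaks far from protein-coding ends. The lowest stood at 4.41, the median at 12.7 (26 tags), the quartiles at 7.84 and 22.5, and the highest at 474.8. The other peaks over 10 kb from protein-coding ends had the same median of 12.7 with quartiles of 7.84 and 25.0, and peaks within 1 kb of protein-coding ends a median of 10.8 with quartiles of 7.84 and 16.7. A normalized tag count of 100 or more was reached by 36 peaks at lncRNA ends (2.65%, 1.86 to 3.65), by 3.92% (3.74 to 4.11) of the other distant peaks and by 1.61% (1.29 to 1.99) at protein-coding ends. For peaks within 1 kb of a lncRNA end and within 10 kb of a protein-coding end, the share was 2.43% (1.58 to 3.57). Among the 1357, peaks nearest to a start had a median of 12.7, those nearest to a 3′ end 13.2. The tall peaks carried much of the signal: 201 peaks (14.8%) held 50% of the tags under all 1357, and the highest 20 held 15.4%.

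**Figure D4:**
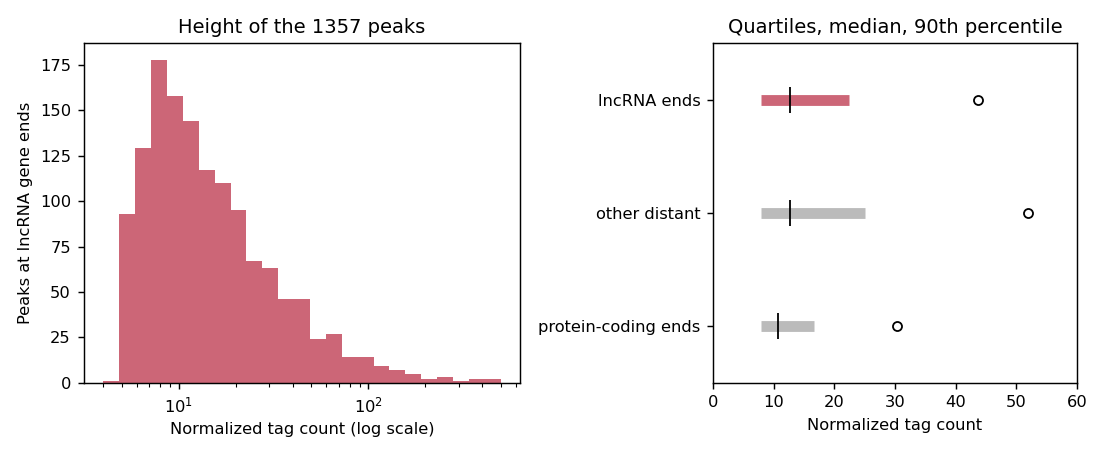
Left, number of peaks at lncRNA gene ends by normalized tag count (log scale). Right, quartiles (bar), median (tick) and 90th percentile (circle) of the normalized tag count for peaks at lncRNA ends, other peaks over 10 kb from protein-coding ends and peaks within 1 kb of protein-coding ends, with medians of 12.7, 12.7 and 10.8.

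Control signal under these peaks was low, as the caller required a 10-fold excess over control for every listed peak. The control held 0 tags under 554 (40.8%, 38.2 to 43.5), 1 tag under 462 and 5 or more under 30, and never over 9. It held 0 tags under 44.8% (44.3 to 45.2) of the other distant peaks. Because the median peak rests on 26 tags, few single peaks were known to exceed control strongly: the lower limit of the ratio to control was above 10 in 173 (12.7%, 11.0 to 14.6), against 15.4% of all peaks on these chromosomes. Against the surrounding 10 kb, the fold in the authors' deposited table had a median of 13.3 at lncRNA ends, and of 19.1 for the other distant peaks. Of the peaks at lncRNA ends, 691 (50.9%) had another listed peak within 10 kb, against 43.0% of the other distant peaks.

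With 9 control tags each, 5 peaks had the most control signal, and the caller's 10-fold requirement lets only high peaks with that many control tags into the list. They lay at 4833407H14Rik (129.9, ratio 24.8), Gm52121 (91.1, ratio 17.4), Gm35534 (83.8, ratio 16.0), Gm40904 (81.8, ratio 15.7) and Gm39253 (64.2, ratio 12.3). The lower limit of the ratio was above 10 only at 4833407H14Rik, at 12.9.

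Few lncRNA genes had such a peak, and most of those had 1. Of 9465 lncRNA genes with an end over 10 kb from protein-coding ends, 1304 (13.8%, 13.1 to 14.5) had a member peak, against 18.0% of all lncRNA genes and 25.4% of protein-coding genes with any listed peak within 1 kb of an end. Of the 1312 genes, 1230 had 1 peak, 81 had 2 and 1 had 3. The share varied little with gene length, at 12.4% up to 2000 bp, 14.1% up to 5000 bp, 14.6% up to 20000 bp and 12.7% above. For protein-coding genes, counted by any listed peak within 1 kb of an end, the share was 11.6%, 23.4%, 26.8% and 28.2% in the same classes. The lncRNA shares count member peaks only, so the shares of these kinds of gene are not measured alike. Over the 19 chromosomes the lncRNA share ran from 11.3% on chromosome 3 to 17.0% on chromosome 12. The gene with 3 peaks was Gm15411 on chromosome 5, of 62140 bp, with 28.9 and 16.2 at its 3′ end (chr5:148953409-148953609 and chr5:148954379-148954579) and 12.7 within 22 bp of its start.

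The tallest peak stood at an end of Gm41477, a gene of unknown strand on chromosome 16. It reached 474.8 (445 to 506) at chr16:78236831-78237031, on 969 BLRP-MafG tags and 2 control tags, a ratio of 409 (113 to 3380). Its midpoint lay 61 bp inside this end of Gm41477 (chr16:78229686-78236992), which may be the start or the 3′ end. The first base after that end, 78236993, is the start of a Gm31613 transcript, whose window with the NF-E2-type site is printed above. The gene ends of Gm31613 lie at least 1949 bp from that start, so the peak was counted for Gm41477. The nearest protein-coding end, of the virus and adhesion receptor gene Cxadr, was 64295 bp away.

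The second peak, of 445.9 (417 to 476), lay 643 bp outside the start of Scarletltr at chr9:64080018-64080218, on 910 tags against 3 in the control (ratio 256, 87.3 to 1243). Its interval overlapped that of the first. The third, of 386.2 (360 to 414), lay 940 bp before the start of Gm36873 at chr6:116793425-116793625, where the single control tag gave a ratio of 665 (119 to 26288), lowered to 222 by a floor of 3 control tags. The fourth, of 347.9 (323 to 374), lay 443 bp past the 3′ end of Gm34801 at chr17:83555096-83555296, also with 1 control tag. The interval of Gm36873 lay below that of Scarletltr and overlapped that of Gm34801.

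Below these, Gm36751 on chromosome 10 held a peak of 286.7 (264 to 311) 325 bp inside its 3′ end, 18831 bp from the cell cycle repressor gene E2f7. Gm15412 on chromosome 7 held one of 253.4 (232 to 276) inside the protein-coding gene Tenm4, whose nearer end is 170452 bp away. LOC115486949 on chromosome 8 had 248.9 (228 to 272), 419 bp inside its start, with the homeobox gene Irx3 as the nearest protein-coding gene at 175433 bp. Gm41812 on chromosome 19 had 232.3 (212 to 254), inside the proprotein convertase gene Pcsk5. The intervals of the last 3 overlapped.

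Gm35814 on chromosome 18 and 2210406O10Rik on chromosome 5 had peaks of 214.1 (195 to 235) and 204.3 (185 to 225). Gm34062 on chromosome 7 had 190.1 (172 to 210), 13188 bp from Mogat2, which encodes an acyltransferase of triglyceride synthesis. The other 9 of the tallest 20 stood between 137.7 and 166.6, and the intervals of neighbours in that order overlapped. They were Gm39075, Gm15322, BC055402, Gm33085, Gm36011, Gm33586, 9330198N18Rik, Gm19689 and 2900009J06Rik. With 0 control tags at Gm39075, the ratio was 95.6 against the floor of 3, and its exact lower limit was 77.3.

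The tallest 20 were spread over both kinds of gene end and over 13 chromosomes, with 5 of them on chromosome 7 (Gm15412, Gm34062, Gm39075, Gm36011 and Gm33586) and at most 2 on any other. Chromosome 7 held 66 of all 1357 peaks, and whether its share of the tallest differs from that was not tested. By nearest end, 6 lay at a start, 7 at a 3′ end and 7 at an end of unknown strand, and 12 lay inside the lncRNA gene. Gene lengths ran from 2304 to 109395 bp. The nearest protein-coding end was between 13188 and 503620 bp away, and over 50 kb in 12. Control tags ran from 0 to 6, and the lower limit of the ratio was above 10 in all 20, the lowest being 17.9 at 2900009J06Rik. Each of the 20 genes had this 1 member peak only, and 13 of the peaks had no other listed peak within 10 kb.

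**Figure D5:**
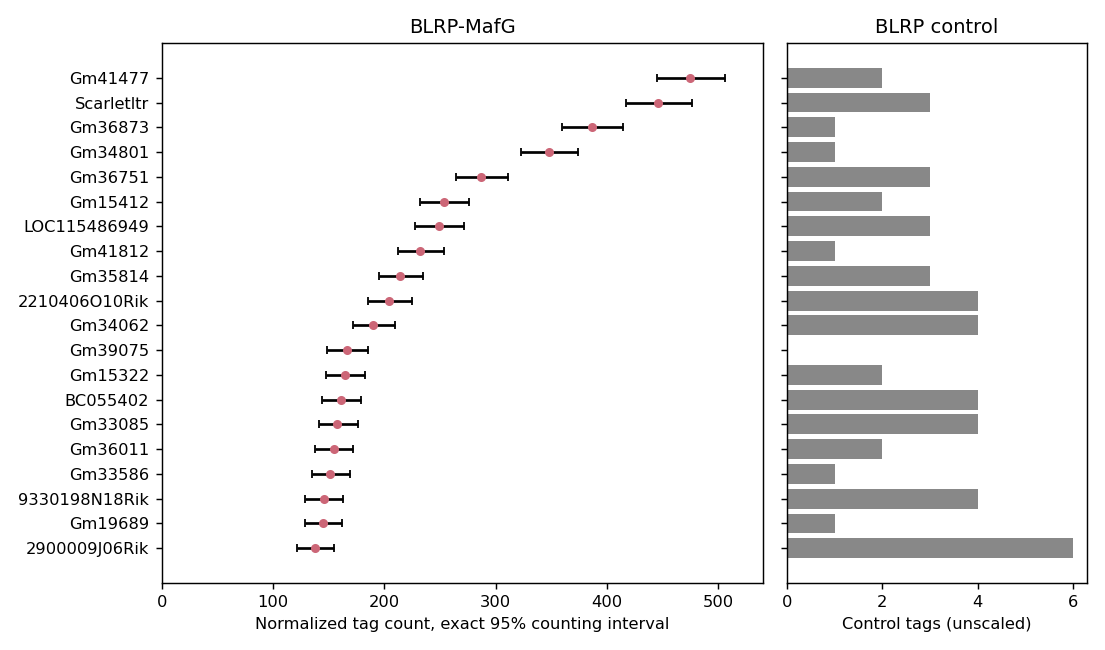
Left, normalized tag count with its exact 95% counting interval for the highest peak of each of the 20 lncRNA genes with the tallest peaks. Right, unscaled control tags under the same peaks, from 0 at Gm39075 to 6 at 2900009J06Rik, against BLRP-MafG heights from 137.7 to 474.8.

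Well-known lncRNA genes had peaks of ordinary height. Of 59 listed genes, 54 were found in the table on these chromosomes and 40 had an end over 10 kb from protein-coding ends. Of these 40, 8 (20%) had a member peak, against 13.8% of all such lncRNA genes. With so few genes, whether these shares differ was not tested. The median of the highest peaks of these 8 was 12.7, the same as over all 1312 genes. A further 9 of the 54 had a listed peak within 1 kb of an end but closer to a protein-coding gene.

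Pantr1, a transcript beside the neural POU factor gene Pou3f3, had the tallest of the 8, of 76.4 (64.9 to 89.4) at chr1:42648225-42648425, where 1 control tag gave a ratio of 132 (23.3 to 5231). Trp53cor1, the p53-induced lincRNA-p21 next to the cell cycle inhibitor gene Cdkn1a, had 27.0 (20.3 to 35.1) at chr17:29078917-29079117, 109 bp inside one end and 11962 bp from Cdkn1a. Hnf4aos, antisense to the hepatocyte factor gene Hnf4a, had 17.2 (11.9 to 23.9) at chr2:163540841-163541041, 780 bp inside its start and inside Hnf4a. The interval of Pantr1 lay above those of the other two.

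Of the imprinted transcripts, Airn, which silences Igf2r, had 12.7 (8.32 to 18.7) 982 bp before its start, and Kcnq1ot1 had 11.3 (7.14 to 16.9) 583 bp inside its start. Lncpint, another p53-induced transcript, had 12.7 (8.32 to 18.7) 607 bp past its 3′ end, where the control held 0 tags. Lncenc1 had 9.8 (5.99 to 15.1) and the small nucleolar RNA host Snhg5 had 7.35 (4.11 to 12.1). The intervals of these 5 overlapped one another. Outside that list, Bach2os, chosen here after its value was seen, had 36.3 (28.5 to 45.5) at chr4:32571034-32571234 inside Bach2, which encodes a CNC partner of small MAF proteins.

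Values at the limits of the rule show what it divides. At the 1 kb limit, a peak of 21.6 at Gm40431 lay just inside (999 bp) and one of 9.31 at Gm42089 just outside (1001 bp). At the 10 kb limit, a peak of 15.2 at Gm50596 was kept (10019 bp from a protein-coding end). One of 275.9 (254 to 300) at Gm10522, with 0 control tags, was not (9996 bp).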

How the data were processed

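Livers of C57BL6/J mice were analysed by ChIP-seq, with 2 BLRP-MafG and 2 BLRP control libraries. Per the submitters' processing notes, Bowtie2, HOMER and build mm10 were used; no version is given. HOMER findPeaks, per the file headers, called 200 bp peaks on 1 BLRP-MafG tag collection with 1 control collection as input. It required a 10-fold excess over control at p 1e-06 and a 4-fold excess over 10 kb. Whether the collections pool libraries is not stated. The deposited signals are BLRP-MafG tags scaled to 10000000 and unscaled control tags, where 0.5 stands for 0. The authors' deposited fold values are linear ratios, the deposited p-values are Poisson values of the caller, and the deposited peak score was not used.

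Whole tags were recovered from the stated total (largest deviation 0.10 tag). Exact 95% intervals are Poisson for heights, conditional binomial for ratios and Clopper-Pearson for shares. Ratios against 0 control tags use a floor of 3. Genes (12408 lncRNA, 20661 protein-coding on chromosomes 1 to 19) and promoter windows came from RefSeq tables of GRCm38.p6, the assembly of mm10, which give no exons. Of the lncRNA genes, 9291 had a promoter window. Steps were tested on simulated data, with Python 3.11.15 and scipy 1.17.1. No test between groups was possible without values per library.

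The members and the lists were chosen with earlier results of these data known. Named genes were the 20 with the highest member peak, genes with 3 or more members, the 5 highest control counts, the members at the limits, and 59 well-known lncRNA genes. The NF-E2-type site and TGACNNNGC were added to the motifs after the files were seen. The printed windows are those overlapped by 100 bp or more with the NF-E2-type site, plus 2 contrasts chosen after their values were seen. The closing section gives the alternatives tried: other windows, distances, peak edges, thresholds and gene sets.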

Additional observations from a re-analysis of the deposited data

How the results depend on the processing

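Of 45 values recomputed under 9 alternatives, 30 stayed within 1.5 times (counts) or within the interval of the reported value (median and shares). The window sets the counts: at 500 bp there were 731 peaks at 729 genes (7.69% of distant lncRNA genes), and at 2 kb 2355 peaks at 2161 genes (22.6%), while the median height was 12.7 in both. With a deposited fold over control of at least 20 there were 847 peaks at 836 genes (8.78%), with a median height of 13.7 and 0 control tags under 61.7%, as the fold itself depends on the control tags. With a deposited p-value of at most 1e-10 the median height was 14.7 and the share of genes 11.5%. Measuring from the peak edge gave 14.7% of genes, and leaving out peaks inside protein-coding genes 10.1%. No paired analysis was possible because the list holds no value per library, and for the same reason no replicate could be left out. Depth limits single peaks: the median peak held 26 tags, so heights near the median and ratios against 0 or 1 control tags are known only roughly.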

Other observations

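Among the 1312 lncRNA genes with such a peak, 10 hold a RefSeq miRNA hairpin. The share among all lncRNA genes was not counted, so whether such hosts are more common here is not known. Lncppara, the host of Mirlet7b and Mirlet7c-2 near Ppara, had a peak of 11.8 (7.54 to 17.5) at chr15:85703219-85703419 with 0 control tags. A330023F24Rik, the host of Mir29b-2 and Mir29c, had one of the same height at chr1:195017231-195017431, also with 0 control tags. The tallest of the 10 was at Gm44570, with 43.6 (35.0 to 53.7), and the lowest, at Mir670hg and Gm45968, stood at 6.86.

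Chromosome X was outside the rule. Its 1592 peaks and 289 lncRNA genes gave 9 peaks that met the same distances, with a median normalized tag count of 8.82 and a highest of 29.9.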
